A study of Homo sapiens with 8 samples.

Results

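Nucleotide synthesis and one-carbon metabolism were followed here through 34 genes, taken by symbol from the 63677 gene rows of a read count table. The genes encode the enzymes that build the purine and pyrimidine rings, turn them into deoxynucleotides, recycle preformed bases and nucleosides, and supply one-carbon units from folate. Of the 34 members, 32 passed the filter on low counts and were tested, and CTPS2 and NME2 had 0 counts in all 8 libraries. The cells were Jurkat, an established line from acute lymphoblastic leukaemia of T cells (T-ALL). In these cells the transcription factor TAL1 carries an FKBP12 tag, so that the degrader dTAG-13 can direct the tagged protein to proteolysis. The study compared 4 treatments of 24 hours with 2 libraries each: DMSO (the solvent control), dTAG-13, GSI, and dTAG-13 with GSI, called the combination below. GSI is the usual abbreviation of gamma-secretase inhibitor, a class of compounds that block the release of active NOTCH1. The labels name neither the GSI compound nor any dose, and they do not say whether the line is 1 clone. All sample titles carry the label SC3, which the labels do not explain. All 4 groups carry the tagged TAL1, and untagged Jurkat cells were not analysed here.

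Purine nucleotides are assembled on activated ribose phosphate in a chain of steps that ends at inosine monophosphate, from which AMP and GMP branch off. Pyrimidine rings are built first and joined to ribose afterwards, and uridine triphosphate is then converted to cytidine triphosphate. Serine supplies the one-carbon units that folate carries into the purine ring and into thymidylate, and T-ALL is treated with antifolates and purine analogues that act on these enzymes.

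Total counts ran from 17544319 to 22180009 per library, and mitochondrial genes took 7.80% to 8.81% of counts. All 10 T cell markers checked were above the filter, with a summed level of 2927 to 3114 counts per 1000000 (CPM) in the 4 libraries without GSI and 2539 to 2903 CPM in the 4 with it. The myeloid list summed to at most 0.704 CPM and the erythroid list to at most 0.469 CPM. The B cell list, led by CD79A, had sums from 61.0 to 71.6 CPM in the libraries without GSI and from 90.4 to 110.2 CPM in those with it, and what this adds to the members' values was not tested. With GSI, DTX1, a known NOTCH1 target, fell by 2.72 on the log2 scale (SE 0.07, adjusted p = 8.52e-10). TAL1 transcript does not report on depletion of TAL1 protein, which was not measured in these files. The replicates of the GSI and combination groups lay further apart than the others: the chi-square per degree of freedom between replicates was 4.62 for DMSO, 6.11 for dTAG-13, 13.9 for GSI and 13.1 for the combination. The labels do not say whether replicates were separate cultures, and if they were not, the p-values reflect technical spread alone. In bulk RNA, fewer cells of a type and less RNA per cell cannot be told apart.

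The members differed widely in level in the DMSO libraries. Levels between genes are given as CPM per kilobase of exon (mean ± SD, n = 2). IMPDH2, the IMP dehydrogenase that commits purines to guanine nucleotides, was highest at 267 ± 5.86. TYMS, thymidylate synthase, followed at 222 ± 14.97, and APRT, which salvages adenine, at 214 ± 2.58. The values of TYMS and APRT lay within their spread of each other (212 to 233 for TYMS and 212 to 216 for APRT). PAICS, an enzyme of the purine ring pathway, stood at 118 ± 2.40 and RRM2, the regulated subunit of ribonucleotide reductase, at 107 ± 5.07. At the low end were PPAT, the first committed enzyme of purine synthesis, at 20.2 ± 0.642, UMPS, which completes UMP, at 8.69 ± 0.192, and DHODH, the mitochondrial dihydroorotate dehydrogenase, at 5.01 ± 0.454. CTPS2, a second CTP synthase, and NME2, a nucleoside diphosphate kinase, were listed at 0. Their count of 0 allows at most 0.171 CPM in the shallowest library, for counting error only. Since the annotation and strand setting of the counting are not known, this is a limit on what was counted on these rows and not on expression of either gene. Reads of NME2 can also be counted on NME1 or on the read-through row NME1-NME2, which held 15.8 to 27.3 CPM.

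**Figure D1:**
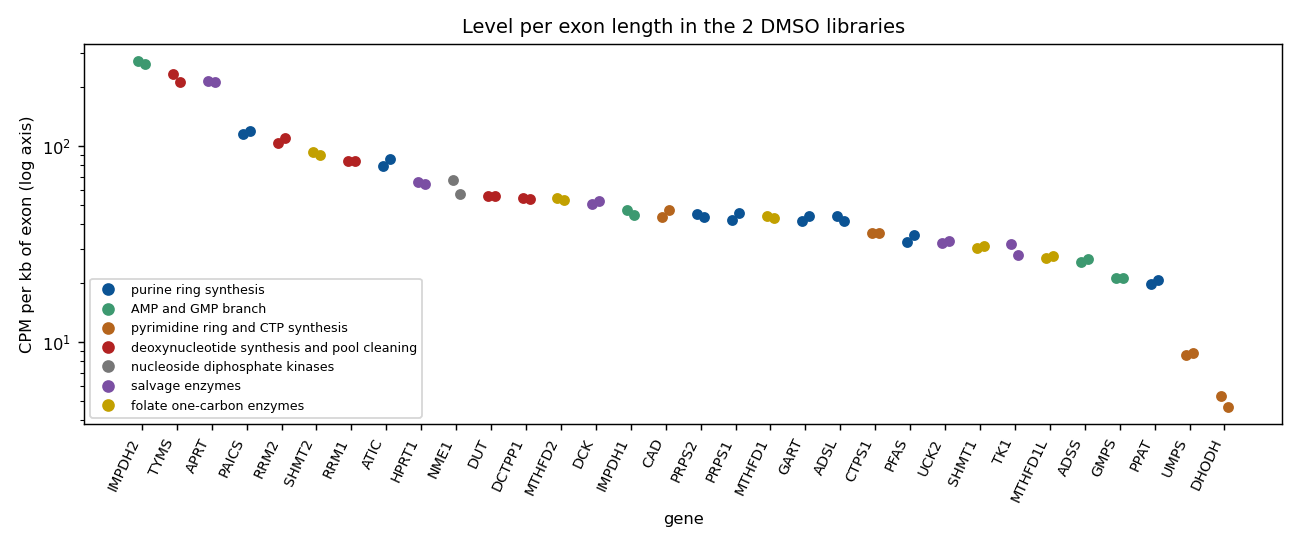
Level of the members in the 2 DMSO libraries, in CPM per kilobase of exon on a log axis, with each library as a point. IMPDH2, TYMS and APRT stand above 200, DHODH is lowest of the detected members at 5.01, and CTPS2 and NME2, at 0, are not drawn.

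The promoters of 9 members hold CACGTG, the sequence bound by MYC with MAX and by other factors of the same family, and MYC is itself a known NOTCH1 target. RefSeq promoter windows of GRCh38.p14, from 250 bases before to 50 bases after an annotated start, were found for 31 of the 34 members (ADSS through its newer symbol ADSS2), and not for ADSL, IMPDH2 or SHMT2. CACGTG reads the same on both strands. Some genes have several windows, and a gene was counted when any of them held CACGTG. That was so for 9 of 31 members (29.03%), 2396 of 27305 genes with a window (8.775%) and 1232 of 9575 such genes tested here (12.87%). Up to 12 bases on either side are printed for each match, 5′ to 3′ on the gene's strand, with CACGTG in capitals, because the results below divide these genes into some that fell, 1 that rose and others that did not pass the test.
DHODH: gccgctactgcgCACGTGcacccaaccaga
ATIC upstream: gggccggcgggcCACGTGataagcccggaa
ATIC downstream: ctcctacctgcgCACGTGgtgccgccgctg
MTHFD1L: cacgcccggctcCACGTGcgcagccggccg
DCK: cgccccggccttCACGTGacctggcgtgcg
PPAT: aacggagatttcCACGTGcagcaaatacag
PAICS: ctgtatttgctgCACGTGgaaa
NME1: agtgctgcgaacCACGTGggtcccgggc
MTHFD1: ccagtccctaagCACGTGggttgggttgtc
DCTPP1: ggagggttcctcCACGTGgtcgggaagcgg

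The DHODH window lies at chr16:72008573-72008602 on the plus strand, with the match 159 bases before the start. ATIC, which closes the purine ring, has 2 matches on the plus strand, 46 bases before the start at chr2:215312001-215312030 and 30 bases after it at chr2:215312076-215312105. That of MTHFD1L is at chr6:150866320-150866349 on the plus strand, 154 bases before the start, and that of DCK at chr4:70993521-70993550 on the plus strand, 116 bases before it. PPAT and PAICS are divergent neighbours whose closest annotated starts lie 137 bases apart. Other PAICS starts lie at -25108 and 645 bases from the PPAT start. The 2 genes share 1 match, which counts for each of them among the 9 members. For PPAT it is at chr4:56435780-56435809 on the minus strand (182 bases before its start). For PAICS it is at chr4:56435780-56435801 on the plus strand (41 bases after the closest start). The NME1 match is at chr17:51153581-51153608 on the plus strand, 35 bases after the start. The MTHFD1 match is at chr14:64388326-64388355 on the plus strand, 15 bases before the start, and the DCTPP1 match at chr16:30429792-30429821 on the minus strand, 9 bases before it. Among members with a window, CACGTG was in 3 of the 10 that fell with GSI and in 6 of the 21 others. A match is a description of letters and not of binding, and no binding data were analysed here.

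The first comparison asked what GSI did to these genes, using the 4 libraries with GSI (GSI and combination) against the 4 without it (DMSO and dTAG-13). With GSI, 12 of the 32 tested members were lower and 1, DCK, was higher at an adjusted p of at most 0.05. Over all 15646 genes tested, 3.56% were lower and 3.38% higher. The median log2 fold change of the members was -0.20, against 0.01 over all genes, and 26 members had negative and 6 positive values. By role, 5 of 8 purine ring genes, 2 of 4 in the AMP and GMP branch, 3 of 4 tested pyrimidine genes, 1 of 5 salvage genes and 1 of 5 folate genes fell. None of the 5 deoxynucleotide genes and not the 1 tested diphosphate kinase, NME1, fell, and 1 salvage gene rose. Differences between roles were not tested. Log2 fold changes below are this averaged GSI effect unless another comparison is named, and adjusted p values are from edgeR's quasi-likelihood test with Benjamini-Hochberg adjustment over all genes. The changes were small, and the 12 called members decreased by 15.1% to 24.3%. In 20 of 32 members (62.5%) all 4 GSI libraries lay below all 4 others, against 8.22% of all genes. In 2, RRM1 and DCK, they all lay above, against 7% of all genes. The members were chosen with earlier results of these data known, and the shares over all genes are not matched to the members' level of expression. The contrasts with all genes are therefore descriptions and not tests.

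**Figure D2:**
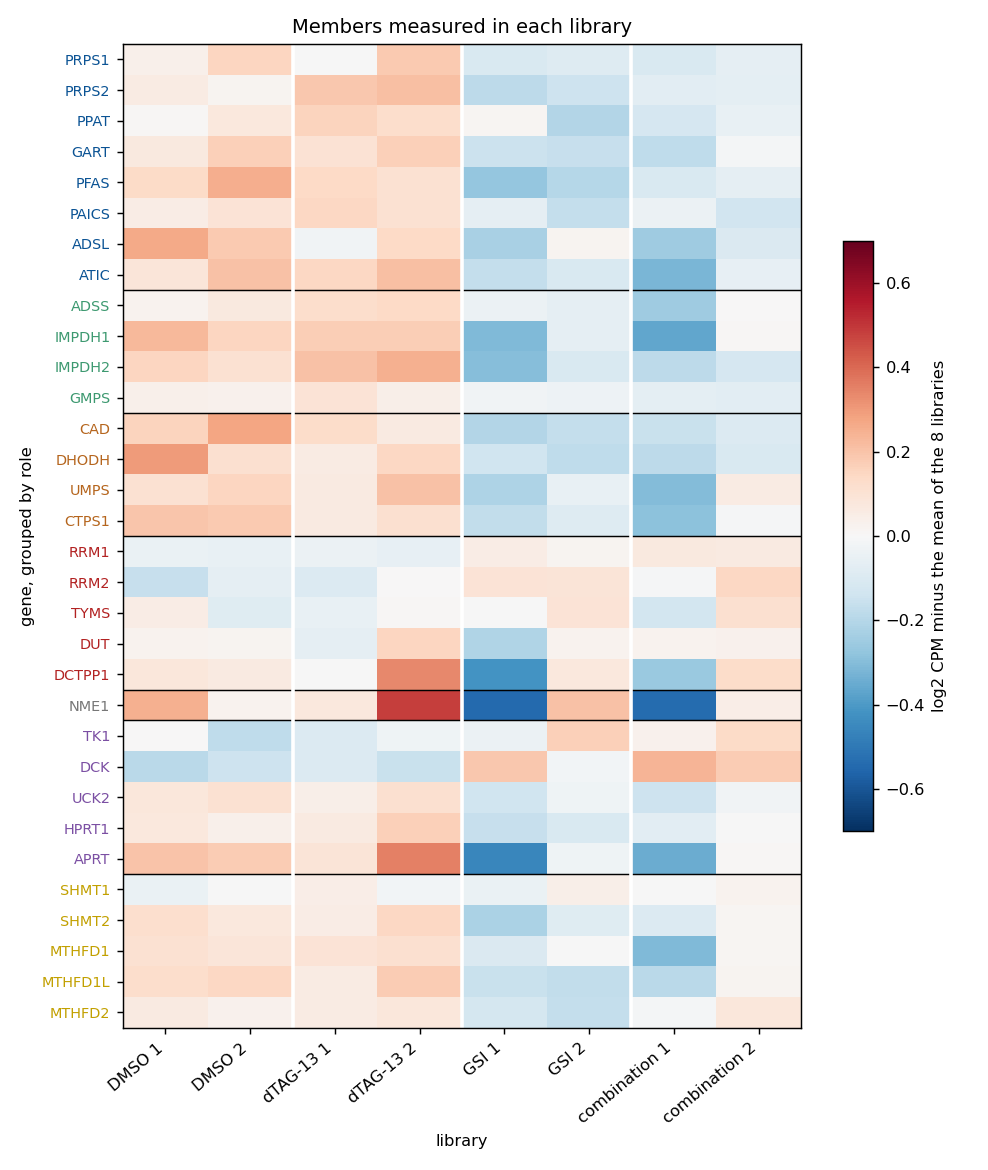
Log2 CPM of each tested member in each of the 8 libraries, as the difference from that member's mean over all libraries, with members in rows grouped by role. Ring synthesis rows are mostly blue (lower) in the GSI and combination columns. RRM1 is only slightly higher there (pale red), and DCK and RRM2 are higher in most of these columns. NME1 and APRT differ between the replicates of a group.

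In the purine ring pathway, PFAS, which makes the formylglycinamidine intermediate, stood at 174 and 189 CPM with DMSO, 174 and 170.4 with dTAG-13, 131 and 138 with GSI, and 147 and 152 with the combination. All 4 GSI libraries were below the 4 others, and the gene fell by 0.32 on the log2 scale (SE 0.06, adjusted p = 0.00501). ATIC, bifunctional in the last steps to IMP, was at 202 and 220.4 CPM with DMSO, 211 and 221 with dTAG-13, 169.7 and 177 with GSI, and 153 and 183 with the combination. The GSI libraries were again all below the others, and ATIC fell by 0.32 (SE 0.07, adjusted p = 0.0142). GART, a trifunctional enzyme that uses formyl folate, gave 181 and 194 CPM with DMSO, 186 and 194 with dTAG-13, 156 and 155 with GSI, and 152 and 171 with the combination. It fell by 0.25 without overlap (SE 0.06, adjusted p = 0.0258). A further GART row in the table held 0 counts.

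PRPS2, one of the enzymes that make the activated ribose phosphate, had 123 and 119.9 CPM with DMSO, 135 and 137 with dTAG-13, 104 and 107 with GSI, and 112 and 113 with the combination. Its GSI libraries were all lower, and its dTAG-13 libraries were above both DMSO libraries. PRPS2 fell with GSI by 0.24 (SE 0.05, adjusted p = 0.0191). ADSL, the lyase used in both ring synthesis and the AMP branch, was at 206 and 195 CPM with DMSO, 169 and 189 with dTAG-13, 147 and 174 with GSI, and 145 and 160.2 with the combination. Here the groups overlapped, since dTAG-13 replicate 1 was below GSI replicate 2. ADSL fell by 0.28 (SE 0.07, adjusted p = 0.0352). The pathway's other 3 members did not pass the test: PAICS had a log2 fold change of -0.20 (adjusted p = 0.0713), PRPS1 of -0.18 (adjusted p = 0.097) and PPAT of -0.18 (adjusted p = 0.122). PPAT ran from 72.9 to 80.6 CPM without GSI and from 62.9 to 73.3 with it, so that its ranges met. PPAT and PAICS, which share the CACGTG match printed above, were thus both uncalled.

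In the branch to guanine nucleotides, IMPDH2 stood at 446 and 432 CPM with DMSO, 463 and 478 with dTAG-13, 327 and 373 with GSI, and 354 and 371 with the combination. Every GSI library was lower than every other library, and IMPDH2 fell by 0.35 (SE 0.06, adjusted p = 0.00559). Its paralogue IMPDH1 was at 140.0 and 133 CPM with DMSO, 135 and 135 with dTAG-13, 96.4 and 114 with GSI, and 92.6 and 120.1 with the combination. Both first replicates with GSI were well below the second ones, without overlap with the other groups, and IMPDH1 fell by 0.36 (SE 0.08, adjusted p = 0.0244). GMPS, which completes GMP, had 187 and 186 CPM with DMSO, 195 and 188 with dTAG-13, 179 and 178 with GSI, and 174 and 173 with the combination. The GSI libraries were all lower but by little, with a log2 fold change of -0.10 (95% interval -0.22 to 0.01, adjusted p = 0.281). ADSS, the first enzyme of the AMP branch, had -0.17 (adjusted p = 0.139).

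Among pyrimidine genes, CAD, whose protein carries the first 3 activities of the pathway, gave 315 and 342 CPM with DMSO, 309 and 296 with dTAG-13, 245 and 252 with GSI, and 253 and 265 with the combination. The groups did not overlap, and CAD fell by 0.31 (SE 0.06, adjusted p = 0.00678). CTPS1, the CTP synthase on which proliferating lymphocytes depend, was at 210.2 and 209 CPM with DMSO, 192 and 198 with dTAG-13, 163 and 173 with GSI, and 151 and 182 with the combination. The GSI libraries were all lower, and CTPS1 fell by 0.27 (SE 0.07, adjusted p = 0.0285). DHODH stood at 25.8 and 22.7 CPM with DMSO, 21.8 and 23.2 with dTAG-13, 19.1 and 18.5 with GSI, and 18.5 and 19.5 with the combination. It too fell without overlap, by 0.30 (SE 0.08, adjusted p = 0.032). UMPS was at 56.3 to 62.3 CPM without GSI and 43.7 to 56.1 CPM with it. That difference of -0.25 did not pass the test (adjusted p = 0.0882).

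**Figure D3:**
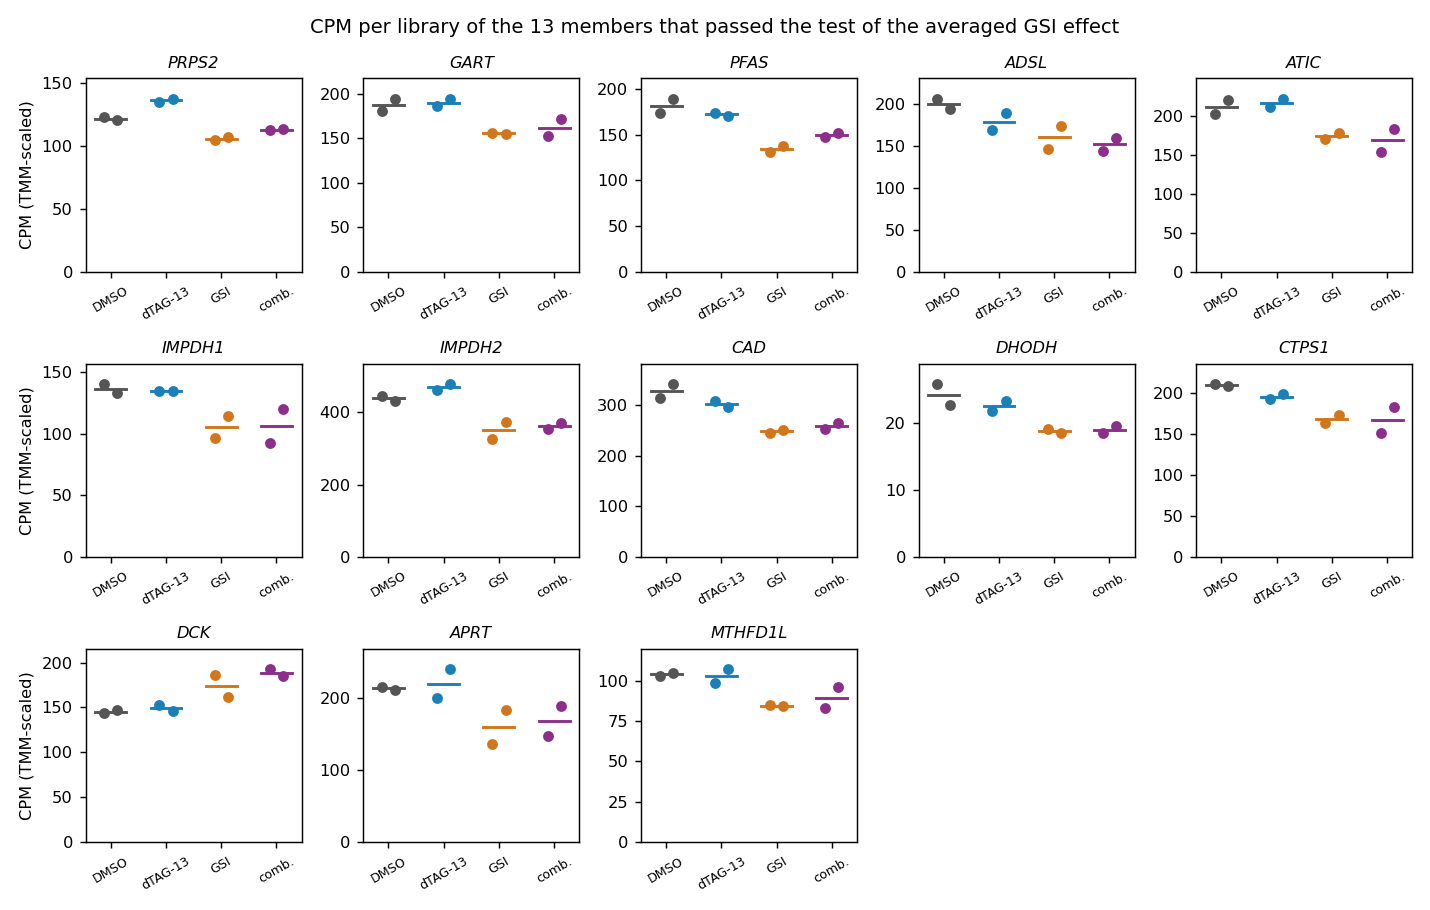
CPM of the 13 members that passed the test of the averaged GSI effect, with 1 panel per gene, 1 point per library, a line at the mean of each group of 2, and vertical axes from 0. In 12 panels the GSI and combination points sit below the DMSO and dTAG-13 points, apart from 1 crossing in ADSL, and in the DCK panel they sit above.

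None of the 5 deoxynucleotide genes passed the test. RRM2 was at 399.7 and 427 CPM with DMSO, 418 and 447 with dTAG-13, 478 and 475 with GSI, and 445 and 493 with the combination. Its ranges met, because combination replicate 1 was just below dTAG-13 replicate 2, and the log2 fold change of 0.16 did not pass (95% interval 0.03 to 0.30, adjusted p = 0.148). RRM1, the large subunit of the reductase, had 280.2 to 283 CPM without GSI and 296 to 306 with it, with all 4 GSI libraries higher but a difference of only 0.10 (95% interval -0.01 to 0.22, adjusted p = 0.29). TYMS had a difference of 0.04 (95% interval -0.11 to 0.19, adjusted p = 0.802), and its row can share reads with the overlapping antisense gene ENOSF1. DUT, which removes dUTP, had -0.07 (adjusted p = 0.632). DCTPP1, a pyrophosphatase that cleans the dCTP pool, was at 85.7 and 84.9 CPM with DMSO, 81.0 and 103 with dTAG-13, 60.7 and 85.6 with GSI, and 67.7 and 88.7 with the combination. The second replicates of 3 groups were higher than the first, the groups overlapped, and the difference of -0.23 did not pass (95% interval -0.48 to 0.02, adjusted p = 0.276). Of the lists of cell cycle genes examined beside them, 0 of 18 S phase genes passed, with a median log2 fold change of 0.00. In the mitosis list 5 of 14 genes rose, with a median of 0.17. Over all genes 3.38% were higher and 3.56% lower.

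NME1, a kinase that makes nucleoside triphosphates from diphosphates, stood at 132 and 113 CPM with DMSO, 117 and 155 with dTAG-13, 76.2 and 128 with GSI, and 76.4 and 114 with the combination. Both first replicates with GSI were the lowest, and the second ones lay inside the range of the other groups. NME1 had a log2 fold change of -0.39 that did not pass the test (95% interval -0.73 to -0.04, adjusted p = 0.175). With the replicate number added to the edgeR model as a block it was -0.42 and passed (adjusted p = 0.0206). The labels do not say that the numbers mark pairs. Without GSI replicate 1 and combination replicate 1 together the value was -0.09 (adjusted p = 0.674), and without both second replicates it was -0.76 (adjusted p = 7.47e-04). Both of these fits leave 1 library in the GSI group and 1 in the combination, which are assumed to vary like the DMSO and dTAG-13 libraries, whose replicates lay closer together, so the p-values may be too small. In those first replicates the 20 cytosolic ribosomal protein genes listed were also low. Their median deviation from the all-library mean was -0.33 in GSI replicate 1 and -0.21 in combination replicate 1. In the second replicates it was 0.08 and 0.06, with DMSO 0.15 and -0.04, and with dTAG-13 0.04 and 0.24. The median deviation of the tested members was -0.15 and -0.06 with GSI and -0.14 and 0.005 with the combination. For DMSO the members had 0.08 and 0.08, and for dTAG-13 0.06 and 0.14. All 20 ribosomal protein genes had negative values with GSI, with a median of -0.19 and 0 calls, and their part in the members' values was not tested.

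Of the salvage enzymes, DCK, which phosphorylates deoxycytidine and activates nucleoside analogue drugs such as cytarabine, was at 143 and 148 CPM with DMSO, 153 and 147 with dTAG-13, 186 and 161 with GSI, and 193 and 185 with the combination. All 4 GSI libraries were higher than the 4 others, and DCK rose by 0.30 on the log2 scale, or 22.8% (SE 0.06, adjusted p = 0.0134). APRT gave 216 and 212 CPM with DMSO, 199.7 and 240.1 with dTAG-13, 137 and 184 with GSI, and 148 and 189 with the combination. The groups did not overlap, although the first replicates with GSI were the lowest, and APRT fell by 0.40 (SE 0.10, adjusted p = 0.0347). The APRT value was -0.22 without GSI replicate 1 and combination replicate 1 together (adjusted p = 0.032) and -0.61 without the second replicates (adjusted p = 1.41e-07), with the spread again taken from DMSO and dTAG-13 alone. HPRT1, which salvages hypoxanthine and guanine, had -0.17 (adjusted p = 0.0995), UCK2, a uridine-cytidine kinase, had -0.17 (adjusted p = 0.103), and TK1, the cytosolic thymidine kinase, had 0.15 (adjusted p = 0.247).

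Of the folate enzymes, MTHFD1L, a mitochondrial enzyme that releases formate, was at 103 and 105 CPM with DMSO, 98.5 and 107 with dTAG-13, 84.9 and 84.2 with GSI, and 83.0 and 96.0 with the combination. The GSI libraries were all lower, and MTHFD1L fell by 0.25 (SE 0.06, adjusted p = 0.035). SHMT2, the mitochondrial serine hydroxymethyltransferase, had 269.9 to 287 CPM without GSI and 223 to 262 with it, a difference of -0.19 that did not pass (adjusted p = 0.0745). Its cytosolic counterpart SHMT1 stayed between 84.8 and 90.4 CPM in all 8 libraries, with a difference of 0.01 (95% interval -0.11 to 0.13, adjusted p = 0.952). MTHFD1, the cytosolic trifunctional enzyme, had -0.19 (adjusted p = 0.127), and MTHFD2, the mitochondrial dehydrogenase, had -0.11 (adjusted p = 0.251).

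**Figure D4:**
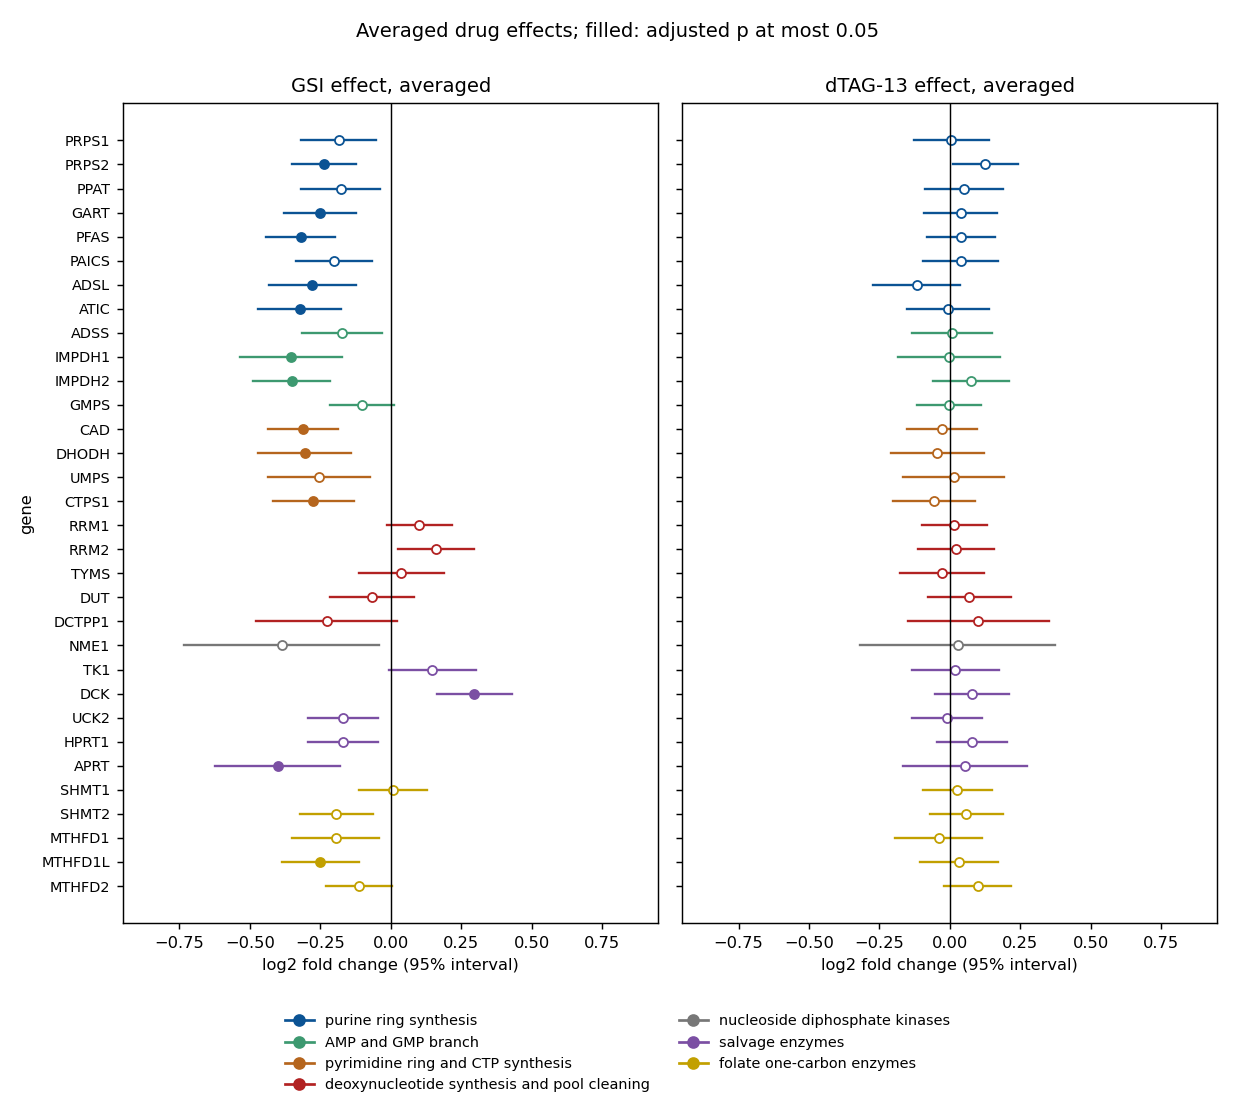
Log2 fold change of the averaged GSI effect and of the averaged dTAG-13 effect for the 32 tested members, with 95% intervals, coloured by role, and filled where the adjusted p was at most 0.05. The GSI values of purine ring genes lie between -0.32 and -0.18 and that of DCK at 0.30, while the dTAG-13 values lie on both sides of 0.

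How far these calls rest on single libraries differed among members. PFAS and CAD lost the call only without DMSO replicate 2 (adjusted p = 0.0557 and 0.0698), and IMPDH2 only without DMSO replicate 1 (adjusted p = 0.0503). ATIC and DCK lost it without either DMSO replicate or dTAG-13 replicate 2, with adjusted p of at most 0.106 and 0.0902. PRPS2 lost it without any 1 of the 4 libraries that had no GSI (adjusted p at most 0.112), and GART without these or combination replicate 1 (at most 0.155). APRT lost it without either DMSO replicate, dTAG-13 replicate 2, GSI replicate 1 or combination replicate 1 (at most 0.162). IMPDH1, DHODH, CTPS1, MTHFD1L and ADSL lost it without any of the 4 libraries that had no GSI, GSI replicate 1 or combination replicate 1, with adjusted p of at most 0.124, 0.153, 0.133, 0.183 and 0.181. ADSL also lost it without both first replicates with GSI (-0.18, adjusted p = 0.0623). Fewer members were called lower without any 1 of the 4 libraries that had no GSI, GSI replicate 1 or combination replicate 1. More were called lower without GSI replicate 2 or combination replicate 2. The number of all genes called lower moved in the same direction in each of these fits, so the changes are not particular to the members. The 13 called members kept their direction in all 8 fits that left out 1 library. In each of them the group left with 1 library is assumed to vary like the other groups.

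Each GSI contrast was then taken on its own, in cells with and without dTAG-13, with no library in common. GSI against DMSO gave 2 lower members and 0 higher, against 0.863% lower and 0.876% higher over all genes. PFAS fell by 0.43 (SE 0.08, adjusted p = 0.0153) and CAD by 0.40 (SE 0.08, adjusted p = 0.0258). In the authors' deposited table of the same comparison PFAS was at -0.44 (adjusted p = 0.00819) and CAD at -0.41 (adjusted p = 0.00971). These were its only 2 called members, beside 243 genes called of the 12688 with an adjusted p. CAD lost its call without any 1 of the 4 libraries (adjusted p of 0.0651 to 0.391), and PFAS without either DMSO replicate or GSI replicate 1 (0.0892 to 0.303). The combination against dTAG-13 gave 0 members in either direction, against 0.569% lower and 0.639% higher. There IMPDH2 had -0.38 (adjusted p = 0.0674), DCK 0.33 (adjusted p = 0.0965), ATIC -0.36 (adjusted p = 0.105) and NME1 -0.51 (adjusted p = 0.366). In that comparison 18 of 32 members (56.2%) had an unadjusted p below 0.05, against 13% of all genes. DESeq2 called IMPDH2 lower there (adjusted p = 0.0114), beside 109 genes lower and 135 higher over all genes. The median over the members was -0.20 for GSI against DMSO and -0.22 for the combination against dTAG-13. Both values were below 0 in 26 of 32 members, against 34.5% of all genes, and both above 0 in 5, against 35.6%. SHMT1 was the member with opposite signs, at values near 0.

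**Figure D5:**
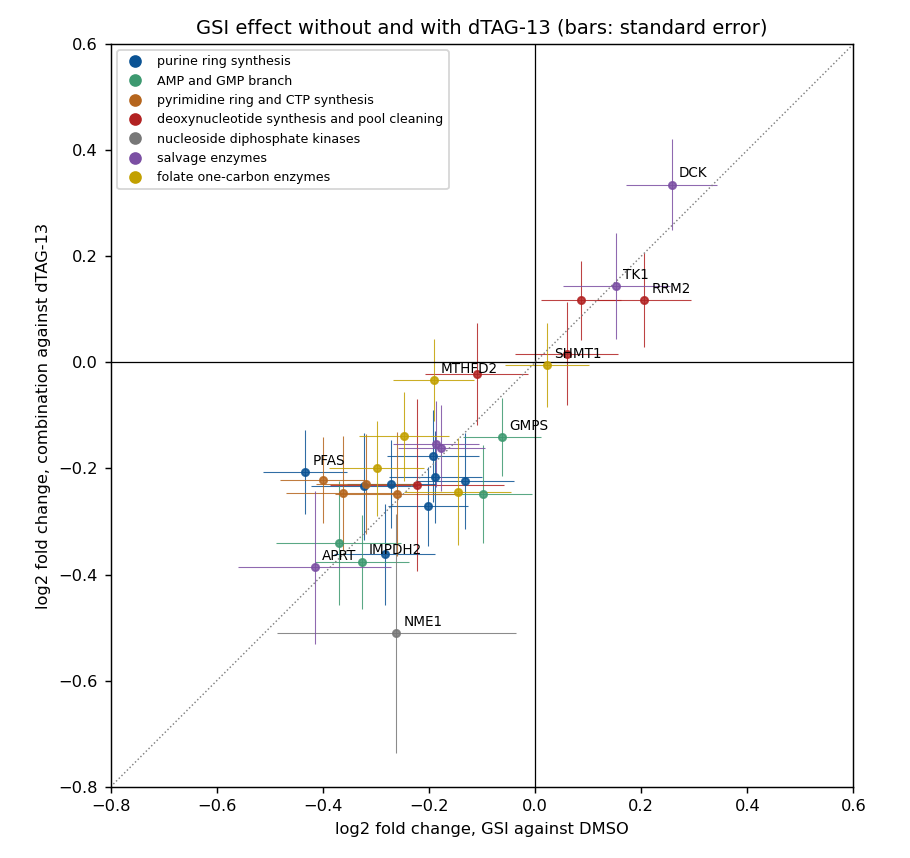
Log2 fold change of GSI against DMSO (horizontal) and of the combination against dTAG-13 (vertical) for the 32 tested members, with bars of 1 standard error, the dotted line of equal values, and colours for role. Of the points, 26 lie in the lower left quadrant and 5 in the upper right, with DCK highest and NME1 lowest.

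Whether the GSI effect differed with dTAG-13 present was tested directly, and 0 of 32 members departed from additivity, with 0% of all genes called in either direction. By an unadjusted p below 0.05 the counts were 0 members and 260 genes (1.66% of all genes), and DESeq2 also called 0 members. The largest member values were 0.23 for PFAS (95% interval -0.02 to 0.47), where the GSI effect was nearer to 0 with dTAG-13, -0.25 for NME1 (-0.94 to 0.44) and 0.18 for CAD (-0.07 to 0.43). The intervals leave room for a change of the GSI effect of up to 0.47 for PFAS.

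The combination against DMSO gave 0 called members in either direction by edgeR, against 0.767% of all genes lower and 0.543% higher. An unadjusted p below 0.05 was found in 14 of 32 members (43.8%), against 12.4% of all genes. DESeq2 called 2 members lower, ADSL and CAD, and 1 higher, DCK, beside 136 genes lower and 97 higher over all genes. By edgeR CAD had -0.34 (adjusted p = 0.0732), ADSL -0.40 (adjusted p = 0.0924) and DCK 0.37 (adjusted p = 0.0641). The authors' deposited table of this comparison, made with DESeq2, called these 3 genes as well, with ADSL at -0.40 (adjusted p = 0.0153), CAD at -0.35 (adjusted p = 0.0377) and DCK at 0.37 (adjusted p = 0.021). Over all genes the authors called 193 of the 12726 with an adjusted p. This comparison shares the DMSO libraries with that of GSI against DMSO.

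The other arm was dTAG-13, directed at TAL1, and no member passed the test of it. Against DMSO, 0 of 32 members were called, beside 0.0192% of all genes lower and 0% higher. An unadjusted p below 0.05 was found in 0 members, against 3.84% of all genes. Values ran from -0.16 for ADSL to 0.16 for PRPS2, with a median of 0.02. With both dTAG-13 groups against both others, 0 members were called, beside 0.422% of genes lower and 0.0767% higher. PRPS2 was the only member with an unadjusted p below 0.05, at 0.13 (95% interval 0.01 to 0.24, adjusted p = 0.756). That is 3.12% of members, against 6.08% of all genes. In 0 members did the 4 dTAG-13 libraries all lie below the others, against 1.55% of all genes, and in 0 above, against 1.07%. The combination against GSI gave 0 members, beside 0.0383% of genes lower and 0.0192% higher. MTHFD2 was the only member under an unadjusted 0.05 there (0.18, 95% interval 0.01 to 0.34). Here too that is 3.12% of members, against 4.14% of all genes. DESeq2 called 0 members in each of these comparisons.

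Other genes of the same pathways were read from lists of related enzymes. In further salvage, kinase and breakdown enzymes, 36 of 44 were tested. With GSI 1 of the 36 rose and 1 fell, against 3.38% higher and 3.56% lower over all genes, and the median was -0.02. Counts of 1 in each direction are near these shares. NT5E (CD73), which makes adenosine from extracellular AMP, was at 4.85 and 5.95 CPM with DMSO, 6.31 and 7.09 with dTAG-13, 11.8 and 10.1 with GSI, and 11.6 and 12.1 with the combination. NT5E rose by 0.92 without overlap (SE 0.11, adjusted p = 3.11e-04). ADA, adenosine deaminase, which protects T cells from deoxyadenosine, had 907 and 894 CPM with DMSO, 927 and 1024 with dTAG-13, 549 and 678 with GSI, and 631 and 685 with the combination. ADA fell by 0.56, again without overlap (SE 0.08, adjusted p = 0.00106). Of 9 carriers of folate and nucleosides, 7 were tested and 3 fell, against 3.56% of all genes, with a median of -0.25. SLC29A1, the equilibrative nucleoside transporter through which cytarabine enters cells, was at 175 to 193 CPM without GSI and 113 to 139 with it. It fell by 0.52 (SE 0.06, adjusted p = 4.85e-04). SLC19A1, the reduced folate carrier that imports methotrexate, fell by 0.37 (adjusted p = 0.0182), and SLC25A33, a mitochondrial pyrimidine nucleotide carrier, fell by 0.25 (adjusted p = 0.0393). NT5E, ADA and SLC29A1 stayed called without any 1 library (adjusted p at most 0.00435, 0.0141 and 0.00927). SLC19A1 lost the call without either DMSO replicate, dTAG-13 replicate 2 or combination replicate 1 (at most 0.12), and SLC25A33 without any library other than combination replicate 2 (at most 0.209) and with DESeq2.

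In the folate and methionine cycle, 18 of 20 genes were tested, 4 fell, 0 rose, and the median was -0.03. Over all genes 3.56% were lower and 3.38% higher. CBS, cystathionine beta-synthase, fell by 0.35 (adjusted p = 0.0105), AHCY, which clears S-adenosylhomocysteine, by 0.26 (adjusted p = 0.0384), MTRR, methionine synthase reductase, by 0.23 (adjusted p = 0.0403) and MTFMT, which formylates mitochondrial initiator tRNA, by 0.27 (adjusted p = 0.0448). All 4 lost the call without either DMSO replicate or dTAG-13 replicate 1, with adjusted p of at most 0.0714 for CBS, 0.178 for AHCY, 0.172 for MTRR and 0.225 for MTFMT over all single libraries. AHCY also lost it without dTAG-13 replicate 2, GSI replicate 1 or combination replicate 1, MTRR without any library other than GSI replicate 1, and MTFMT without any single library and with DESeq2. MAT2A, which makes S-adenosylmethionine, had -0.22 (adjusted p = 0.0873). Serine synthesis gave 0 calls among 3 genes, with PHGDH at -0.11 (adjusted p = 0.376). RRM2B, the p53-induced reductase subunit, had 0.09 (adjusted p = 0.697), and SAMHD1, which degrades deoxynucleotides, was below the filter at no more than 0.338 CPM. The cell cycle genes E2F1 and PCNA had 0.11 (adjusted p = 0.465) and 0.00 (adjusted p = 0.976). MYC, a known activator of many nucleotide synthesis genes, was at 349 and 340.1 CPM with DMSO, 348 and 352 with dTAG-13, 170.1 and 189.7 with GSI, and 200.2 and 225 with the combination. MYC fell by 0.83 without overlap (SE 0.06, adjusted p = 1.1e-05), stayed called without any 1 library, and its part in the members' values was not tested.

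With dTAG-13 averaged over both backgrounds, 1 gene of the salvage list and 1 of the folate list fell, and 0 rose in either list. Over all genes 0.422% were lower and 0.0767% higher. TK2, the mitochondrial thymidine kinase, was at 18.4 and 17.3 CPM with DMSO, 13.4 and 14.7 with dTAG-13, 23.2 and 20.9 with GSI, and 16.0 and 14.6 with the combination. Every library with dTAG-13 was below every library without it, and TK2 fell by 0.44 (SE 0.08, adjusted p = 0.038). GLDC, the glycine decarboxylase that feeds one-carbon units from glycine, had 11.1 and 10.1 CPM with DMSO, 7.14 and 7.83 with dTAG-13, 10.9 and 13.2 with GSI, and 7.91 and 8.73 with the combination. GLDC fell by 0.52, also without overlap (SE 0.10, adjusted p = 0.0461). Both were close to the threshold. TK2 stayed called without GSI replicate 2, and GLDC without GSI replicate 1, and both lost the call without any other single library (adjusted p at most 0.253 for TK2 and 0.307 for GLDC). GLDC also lost it with DESeq2. Of the transporter and serine synthesis genes, 0 were called for dTAG-13.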

How the data were processed

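Total RNA of 8 samples was sequenced as strand-specific paired-end libraries with 100-base reads, per the labels' protocols. The submitters' processing notes name STAR 2.5.2a, featureCounts, DESeq2 1.12.4 and hg19. The annotation and strand setting of the counting were not given in the sources used here. The authors deposited whole-number counts per gene and library, which were used as they stand. Their deposited tables of each treatment against DMSO hold a mean signal of normalized counts, log2 fold changes with their errors, a test statistic (a score) and p-values, made by the authors with DESeq2.

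Genes passing edgeR's filterByExpr (15646 of 63677, holding at least 99.891% of counts in each library) were tested with edgeR 4.0.16 (limma 3.58.1, R 4.3.3) by the quasi-likelihood F-test with TMM scaling and robust dispersion. All 8 libraries entered 1 model of 4 groups, with 4 residual degrees of freedom and a biological coefficient of variation of 0.0804. P-values of the 15646 genes were adjusted together by Benjamini-Hochberg, and a gene was called at an adjusted p of at most 0.05. CPM use TMM-scaled library sizes. The averaged GSI effect is the mean of GSI and the combination less the mean of DMSO and dTAG-13 on the log2 scale. Lists were described by counts and medians. Alternatives were DESeq2 1.42.0, its size factors, no filter, a replicate block, the compared libraries only, leaving out each library, and 2 added after seeing the data.

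The members and lists were chosen with earlier results of these data known. Library values are given for each called member, for the members with the highest and lowest value of GSI against DMSO in each role, for up to 4 called related genes in each direction, and for fixed genes such as MYC. Levels per kilobase use GENCODE v29 exon lengths for 34 of 34 members, and promoter windows are from RefSeq on GRCh38.p14. Neither is the build of the counts, so no position was carried between builds.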

Additional observations from a re-analysis of the deposited data

How the results depend on the processing

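For the averaged GSI effect, 12 members were lower and 1 higher; with DESeq2 the counts were 13 and 1, with its size factors 12 and 1, without a filter 17 and 1, and all 13 called members stayed called in each. Leaving out 1 library gave 1 to 15 lower and 0 to 1 higher. Chosen after seeing the data, leaving out both first replicates with GSI gave 13 lower and 3 higher members (DCK, RRM2 and TK1), and leaving out both second ones 21 lower and 1 higher; over all genes these gave 697 lower and 695 higher, and 2039 lower and 1594 higher, against 557 and 529. These 2 fits have 1 library in each GSI arm and take the spread from DMSO and dTAG-13, the groups with the closer replicates, so their larger counts are not firmer calls.

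For GSI against DMSO, 2 members were lower, 7 without a filter, 3 with DESeq2, and 0 to 1 without 1 library. For the combination against DMSO, 0 were called by edgeR, 2 lower and 1 higher by DESeq2, 6 lower and 1 higher without a filter, and 0 to 3 lower and 0 higher without 1 library. For the combination against dTAG-13, 0 were called, 1 lower by DESeq2, 4 lower and 1 higher without a filter, and 0 to 2 lower and 0 higher without 1 library. The dTAG-13 comparisons, the combination against GSI and the departure from additivity gave 0 members in every setting tried.

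Replicate numbers are shared by the groups, but the labels do not say that they mark a culture or day. Correlations of replicate 1 less replicate 2 between DMSO and dTAG-13, GSI and the combination were -0.0175, -0.0902 and -0.0339. Between dTAG-13 and GSI the value was 0.132, between dTAG-13 and the combination 0.109, and between GSI and the combination 0.186. The numbers do not establish pairing. With the replicate block 18 members were lower and 1 higher for the averaged GSI effect, where PRPS1, PAICS, UMPS, DCTPP1, SHMT2 and NME1 (-0.42, adjusted p = 0.0206) joined those called; the block gave 7 lower for GSI against DMSO, 4 lower and 1 higher for the combination against DMSO, and 3 lower and 1 higher for the combination against dTAG-13. Over all genes the block gave 964 lower and 858 higher for the averaged GSI effect, 295 and 264 for GSI against DMSO (135 and 137 without it), 231 and 182 for the combination against DMSO (120 and 85), 235 and 241 for the combination against dTAG-13 (89 and 100), 28 and 6 for the combination against GSI (6 and 3), 20 and 3 for dTAG-13 against DMSO (3 and 0) and 107 and 28 for the averaged dTAG-13 effect (66 and 12).

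Over all genes, counts lower and higher without a filter were 991 and 824 for the averaged GSI effect, 357 and 303 for GSI against DMSO, 288 and 244 for the combination against DMSO, 299 and 264 for the combination against dTAG-13, 45 and 14 for the combination against GSI, 40 and 11 for dTAG-13 against DMSO and 124 and 41 for the averaged dTAG-13 effect. DESeq2 gave 564 lower and 423 higher for the averaged GSI effect and 161 and 155 for GSI against DMSO. It gave 136 and 97 for the combination against DMSO and 109 and 135 for the combination against dTAG-13. For dTAG-13 against DMSO it gave 18 lower and 3 higher, and for the combination against GSI 15 and 5. The compared libraries alone gave 64 and 13 for dTAG-13 against DMSO, 49 and 47 for the combination against dTAG-13 and 3 and 1 for the combination against GSI. Without 1 library, lower counts were 164 to 808 for the averaged GSI effect, 23 to 123 for GSI against DMSO, 27 to 142 for the combination against DMSO, 27 to 138 for the combination against dTAG-13, 3 to 4 for the combination against GSI, 0 for dTAG-13 against DMSO, 8 to 56 for the averaged dTAG-13 effect and 0 to 1 for the departure. Higher counts were 172 to 700, 9 to 105, 9 to 99, 11 to 117, 2 to 3, 0 to 1, 3 to 16 and 0 in the same order. The cause of these differences was not tested. No called member value changed sign; 184 of 2656 member values, all uncalled, did. With 2 libraries a group, small changes of members near the threshold were not resolved.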
